A study of Mus musculus with 28 samples.

Results

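Transcripts of 10 genes of MHC class I antigen presentation were followed in the brains of 28 mice. The genes were the class I light chain B2m, the heavy chains H2-K1, H2-D1, H2-T23 and H2-M3, the loading factor Tapbp, the peptide transporter subunits Tap1 and Tap2, and the immunoproteasome subunits Psmb8 and Psmb9. They were taken by symbol from the table of raw counts, which held each of them as 1 of its 53801 genes. Of these 10 genes, 5 had enough tags to be tested, namely B2m, H2-K1, H2-D1, Tapbp and Psmb8, among 11123 genes tested in all. The other 5, H2-T23, H2-M3, Tap1, Tap2 and Psmb9, fell under the filter on low counts and are described by their tags.

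Class I molecules show peptides from inside a cell to T cells and natural killer cells. Proteasomes cut cytosolic proteins, the immunoproteasome being the form with exchanged catalytic subunits that interferon induces, and the Tap1 and Tap2 transporter carries the peptides into the endoplasmic reticulum. There tapasin, the product of Tapbp, holds empty heavy chains paired with beta-2 microglobulin at the transporter until a peptide is bound. In the healthy brain class I transcripts are known to be low and to be carried mainly by microglia and endothelium, with some in neurons, and they rise with interferon and in reactive microglia.

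The mice were C57Bl/6J, 15.0 to 16.0 weeks old, and fell into 4 groups of 7: wildtype (WT) and double knockout (DKO) mice, each given saline or vector. DKO mice lacked Grn, which encodes the lysosomal glycoprotein progranulin, and Tmem106b, which encodes a lysosomal membrane protein. The vector, AAV(L):bPGRN, was a liver-targeted AAV for human progranulin fused to the 8D3 antibody fragment, a binder of the mouse transferrin receptor, and was injected at 6 weeks of age at 1.3e+13 vector genomes per kg, 9 to 10 weeks before the brain was taken. Each WT group held 4 males and 3 females and each DKO group 3 males and 4 females, spread over 4 processing batches with 1 DKO saline mouse in each of batches 1 to 3 and 4 in batch 4. The material was 1 powdered hemibrain per mouse, so fewer cells of a type and less RNA per cell cannot be told apart.

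Libraries held 1164637 to 2389815 tags. Markers of neurons (Snap25, 1461 CPM in WT saline), oligodendrocytes (Mbp, 5532 CPM) and astrocytes (Gfap, 96.5 CPM) were present. As a check of the labels, Tmem106b had 119 ± 23.1 and 121 ± 17.5 CPM in the saline and AAV groups of WT mice, and 12.8 ± 4.77 and 9.63 ± 2.18 CPM in those of DKO mice (SD, n = 7). Grn tags came to 181 ± 73.9 and 175 ± 32.5 against 192 ± 66.7 and 126 ± 27.9 CPM. They did not separate DKO saline from WT saline and so give no check of the Grn label. Whether these 3' tags lie outside the deleted part was not tested. A striatal marker score was low in DKO saline replicate 2 (-1.48) and a cerebellar one in WT saline replicate 6 (-2.58) and WT AAV replicate 7 (-1.73), as mean log2 differences from WT saline, and results of the tested genes are given with and without these 3 libraries where that changes a call.

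All 10 genes except B2m lie in the major histocompatibility complex on chromosome 17. On GRCm38 the order is Tapbp (33915899 to 33929288, plus strand), H2-K1 (33996017 to 34000333, minus), Psmb9 (34181988 to 34187764, minus), Tap1 (34187553 to 34197225, plus), Psmb8 (34197721 to 34201454, plus), Tap2 (34203527 to 34216321, plus), H2-D1 (35262730 to 35267499, plus), H2-T23 (36029773 to 36032855, minus) and H2-M3 (37270220 to 37274484, plus). B2m lies on chromosome 2 (122147686 to 122153083, plus). Tap1 and Psmb9 run in opposite directions, and their spans given here overlap at the starts. The start sites of their RefSeq promoter windows lie 226 bases apart. RefSeq promoter windows of GRCm38.p6, from 250 bases before to 50 after a start site, were matched by symbol for 9 of the 10 genes. Those of H2-K1, H2-D1 and B2m are shown because the levels of these transcripts correlated from mouse to mouse, as described further on. For H2-K1, RefSeq gives a second window that starts a few bases away and is not shown. Capitals mark GAANNGAAA, one spelling of the core of interferon response elements, TGACG, the core of the X2 box, and CCAAT, the letters of the Y box, each searched on both strands. X2 and Y boxes belong to the module through which NLRC5 and the RFX complex drive class I genes.

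H2-K1, chr17:34000284-34000583, minus strand: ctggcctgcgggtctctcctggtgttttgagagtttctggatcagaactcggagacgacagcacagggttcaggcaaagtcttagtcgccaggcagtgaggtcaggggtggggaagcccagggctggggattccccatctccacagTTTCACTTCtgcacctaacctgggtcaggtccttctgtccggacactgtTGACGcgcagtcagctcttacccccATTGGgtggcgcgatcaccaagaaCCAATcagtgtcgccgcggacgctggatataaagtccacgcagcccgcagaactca

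H2-D1, chr17:35262844-35263143, plus strand: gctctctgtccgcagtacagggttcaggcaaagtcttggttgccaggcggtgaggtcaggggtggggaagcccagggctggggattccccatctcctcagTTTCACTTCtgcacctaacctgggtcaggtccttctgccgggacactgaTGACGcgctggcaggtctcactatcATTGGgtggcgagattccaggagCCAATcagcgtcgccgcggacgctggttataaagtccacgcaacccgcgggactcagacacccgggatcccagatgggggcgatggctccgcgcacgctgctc

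B2m, chr2:122147437-122147736, plus strand: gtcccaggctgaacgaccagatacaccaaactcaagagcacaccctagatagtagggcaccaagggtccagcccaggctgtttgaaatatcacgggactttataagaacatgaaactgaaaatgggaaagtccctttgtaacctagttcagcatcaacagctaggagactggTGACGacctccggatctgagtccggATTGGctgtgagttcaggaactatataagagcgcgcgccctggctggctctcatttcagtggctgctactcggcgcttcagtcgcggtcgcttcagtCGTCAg

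H2-K1 and H2-D1 held the same order of letters. GAANNGAAA, read on the reverse strand, lay 104 to 96 bases before the start of H2-K1 and 150 to 142 bases before that of H2-D1, followed in each by the X2 core and by Y boxes on both strands. Over an ungapped alignment of 254 bases the windows shared 180 bases (70.9%), with an identical run of 47 bases just upstream of GAANNGAAA. B2m held the X2 core 78 to 74 bases before its start and a reverse Y box 53 to 49 bases before it, and no GAANNGAAA in its window. Other spellings and spacings of interferon response elements were not searched. From the first base of the X2 core to that of the reverse Y box it was 25 bases in H2-K1, H2-D1, B2m and H2-M3, a distance chosen after the windows had been read and found in 0.0944% of 32851 RefSeq windows. GAANNGAAA occurred in 7.52% of windows and in 3 of the 9 genes here, the third being H2-M3. The X2 core, found in 20.8% of windows, was in 6 of the 9 genes, and the Y box, found in 37.4%, was in 8. The windows of Tap1 and Psmb9 share 275 bases, and their X2 core and Y box are the same sites read from either side. TTCNNNGAA, the gamma-activated site, occurred in 8.3% of windows and in H2-M3 and Psmb8. The letters in capitals did not overlap each other. These matches describe letters and not binding.

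The first comparison asked how the light and heavy chains differed between DKO and WT brains given saline. B2m, H2-K1 and Tapbp rose in DKO saline, by 1.55-fold, 1.43-fold and 1.39-fold, and H2-D1 and Psmb8 did not pass the test. These 3 of 5 tested genes, all higher, stand beside 6.9% of all tested genes called in either direction and 3.62% called higher. The median log2 change of the 5 genes was 0.48, against 0.0034 over all tested genes, and 4 of the 5 had an unadjusted p under 0.05, as had 20.9% of all genes.

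B2m encodes beta-2 microglobulin, the light chain that every class I molecule needs to reach the cell surface. Its level in WT saline ran from 242 to 471 CPM with a median of 370, and in DKO saline from 478 to 747 with a median of 512. All 7 DKO saline mice lay above all 7 WT saline mice. How many of all tested genes separate 2 groups in this way, here or in the comparisons below, was not counted. The log2 change was 0.63 ± 0.11 (95% interval 0.42 to 0.85, adjusted p 0.000183).

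H2-K1 encodes the heavy chain K, a classical class I molecule that presents peptides to CD8 T cells. It ran from 67.3 to 114 CPM (median 96.7) in WT saline and from 105.4 to 157 (median 118) in DKO saline. The groups overlapped, with 5 of 7 DKO mice above every WT mouse. The log2 change was 0.51 ± 0.12 (0.26 to 0.76, adjusted p 0.00773). Without the 3 libraries of low regional score it was 0.33 (adjusted p 0.112).

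H2-D1 encodes the other classical heavy chain of this strain. It ran from 65.9 to 160 CPM (median 107) in WT saline and from 121 to 192 (median 134) in DKO saline, and 2 of 7 DKO mice exceeded every WT mouse. The log2 change of 0.40 ± 0.14 (0.11 to 0.69) missed the threshold at an adjusted p of 0.0817. It passed in 8 of 42 alternatives, among them those without DKO saline replicate 1 (0.48, adjusted p 0.046), DKO saline replicate 3 (0.49, 0.0434) or WT saline replicate 5 (0.49, 0.0276). Other alternatives weakened it. Over all 42 the change ran from 0.07 to 0.84, with adjusted p-values from 0.0101 to 0.808, and over single libraries left out from 0.26 to 0.49. The spread of H2-D1 within groups, a residual SD of 0.29 on the log2 scale, was the largest of the heavy and light chains, against 0.20 for B2m and 0.23 for H2-K1.

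Tapbp encodes tapasin, which bridges heavy chains to the transporter. It ran from 26.2 to 39.5 CPM (median 32.7) in WT saline and from 34.0 to 62.9 (median 42.7) in DKO saline, with 5 of 7 DKO mice above all WT mice. The log2 change was 0.48 ± 0.13 (0.21 to 0.75, adjusted p 0.0242). This call was lost without DKO saline replicate 2, the mouse at 62.9 CPM (0.32, adjusted p 0.184), and without WT saline replicate 2 (0.42, 0.0749), replicate 3 (0.42, 0.0689) or replicate 6 (0.42, 0.0601). Without the 3 libraries of low regional score it was 0.25 (adjusted p 0.331).

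Psmb8 encodes the immunoproteasome subunit that replaces a catalytic subunit of the standard particle. It ran from 5.38 to 15.2 CPM (median 13.2) in WT saline and from 9.89 to 17.7 (median 13.7) in DKO saline, so the groups overlapped nearly throughout. The log2 difference was 0.20 ± 0.21 (-0.23 to 0.63, adjusted p 0.634), an interval that includes the changes of H2-K1 and Tapbp.

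**Figure D1:**
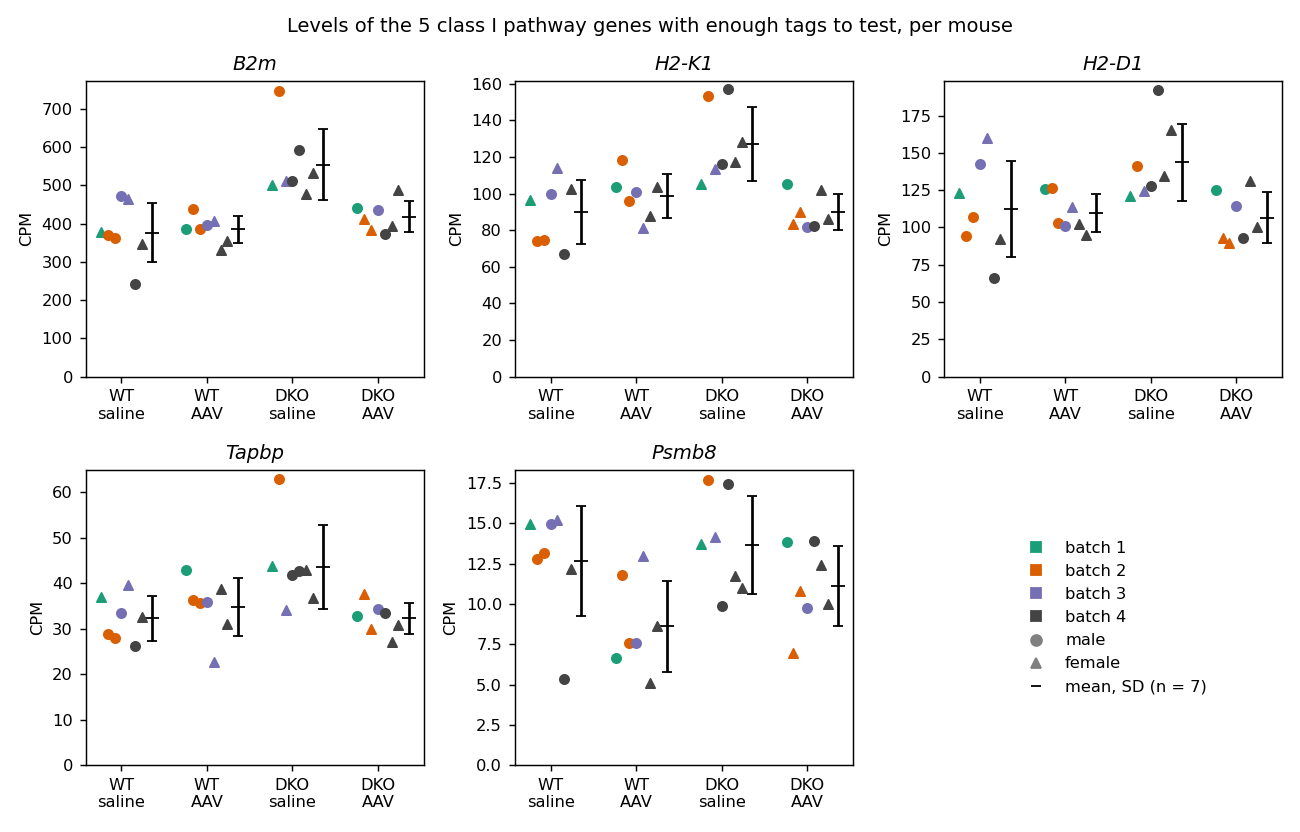
Levels of the 5 tested genes in CPM on linear axes from 0, 1 point per mouse, coloured by processing batch with shapes for sex, and bars for the mean and SD of 7 mice. B2m of all DKO saline mice (478 to 747) lies above all WT saline mice (242 to 471), while Psmb8 overlaps between these groups.

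The second comparison asked how the same transcripts differed when DKO mice received the vector. B2m, H2-K1 and Tapbp, the 3 genes called above, were lower in DKO AAV than in DKO saline, and H2-D1 and Psmb8 did not pass the test. These 3 of 5 tested genes stand beside 3.02% of all tested genes called and 2.2% called lower. The median of the 5 log2 changes was -0.43, against -0.0025 over all tested genes, and 4 of the 5 had an unadjusted p under 0.05, as had 19.1% of all genes. Both comparisons use the same DKO saline libraries, so a high value there moves the first up and the second down, and each is given by its own values only.

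B2m ran from 371 to 487 CPM (median 413) in DKO AAV, and 6 of 7 mice lay below every DKO saline mouse. It fell by 0.43 ± 0.10 on the log2 scale (interval -0.63 to -0.22, adjusted p 0.0179). H2-K1 ran from 81.5 to 105.2 CPM (median 86.0), and all 7 mice lay below all 7 DKO saline mice, the closest values being 105.2 and 105.4, a gap smaller than the rounding of the deposited counts. It fell by 0.50 ± 0.12 (-0.74 to -0.27, adjusted p 0.0145). H2-D1 ran from 89.9 to 131 CPM (median 100.3), with 5 of 7 mice below every DKO saline mouse, and its change of -0.43 ± 0.13 (-0.71 to -0.16) had an adjusted p of 0.0693. In size this matched the change of B2m, with a wider spread between mice. Tapbp ran from 27.0 to 37.5 CPM (median 32.9), also with 5 of 7 mice below every DKO saline mouse, and fell by 0.45 ± 0.13 (-0.70 to -0.19, adjusted p 0.0423). Psmb8 ran from 6.95 to 13.9 CPM (median 10.8), overlapping DKO saline, with a difference of -0.33 ± 0.20 (-0.74 to 0.08, adjusted p 0.373).

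These 3 calls depended on which libraries were kept, and the share of all genes called, 3.02% in the main fit, moved as well. Without the 3 libraries of low regional score none of the 5 genes passed, beside 0.691% of all genes. The log2 changes were -0.32 for B2m, -0.41 for H2-K1 and -0.29 for Tapbp (adjusted p 0.0701, 0.0797 and 0.305). None of the 5 genes passed without DKO saline replicate 2, beside 0.482% of all genes. There the changes were -0.34 for B2m, -0.42 for H2-K1 and -0.30 for Tapbp (adjusted p 0.115, 0.0947 and 0.289). None passed without DKO AAV replicate 5 either, beside 1.01% of all genes (-0.41, -0.47 and -0.47, adjusted p 0.0556, 0.0544 and 0.0785). Without DKO AAV replicate 4 H2-K1 alone passed, beside 1.51% of all genes, with B2m at -0.40 (adjusted p 0.054). H2-D1 passed without DKO AAV replicate 6 (-0.51, adjusted p 0.0431), DKO saline replicate 1 (-0.51, 0.0238) or WT saline replicate 6 (-0.41, 0.0475). Over all 42 alternatives its adjusted p-values ran from 0.00461 to 0.361. Tapbp lost its call in 20 of 42 alternatives, 12 of which left out 1 library. Those 12 were DKO AAV replicates 1 and 3 to 7, DKO saline replicates 2 and 5 to 7, WT AAV replicate 3 and WT saline replicate 4, with adjusted p-values from 0.0514 to 0.289. The change of Tapbp stayed between -0.52 and -0.29 over all 42 alternatives.

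**Figure D2:**
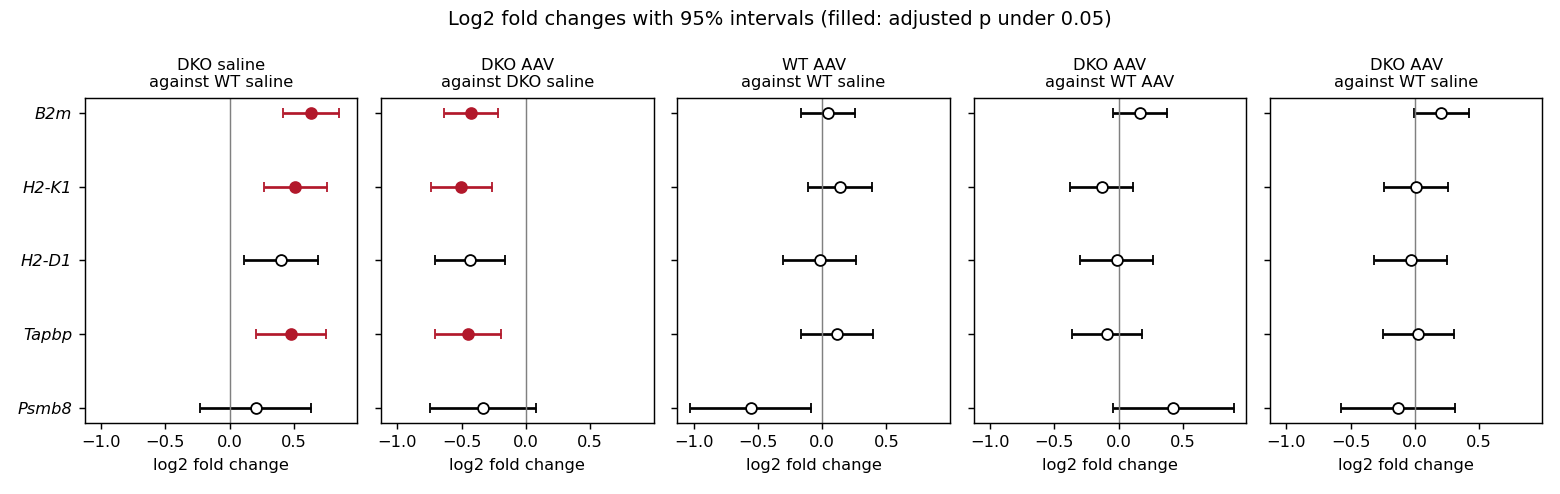
Log2 fold changes of the 5 tested genes in 5 comparisons between groups, with 95% intervals, filled where the adjusted p was under 0.05. The filled points are B2m, H2-K1 and Tapbp, at 0.48 to 0.63 in DKO saline against WT saline and at -0.50 to -0.43 in DKO AAV against DKO saline.

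In WT mice the vector was not followed by a called change in any of the 5 genes, and 0% of all tested genes were called in that comparison by edgeR, with 254 genes (2.28%) at an unadjusted p under 0.05 and 0 by DESeq2. WT AAV levels ran from 330 to 439 CPM for B2m (median 386), 81.2 to 118 for H2-K1 (median 100.7), 94.9 to 127 for H2-D1 (median 103) and 22.7 to 43.0 for Tapbp (median 35.9), each overlapping WT saline. The log2 changes were 0.04 for B2m (-0.17 to 0.25), 0.14 for H2-K1 (-0.11 to 0.38), -0.02 for H2-D1 (-0.30 to 0.26) and 0.11 for Tapbp (-0.17 to 0.39), all at an adjusted p of 1. Psmb8 was the exception in size. It ran from 5.13 to 13.0 CPM (median 7.56) in WT AAV, against a median of 13.2 in WT saline, a difference of -0.56 (-1.03 to -0.08) with an unadjusted p of 0.0223 and an adjusted p of 1, and it was below 0 in each of the 4 batches (-1.06 to -0.25).

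Whether the vector effect differed between genotypes was tested as an interaction. None of the 5 genes passed, as against 0.018% of all genes (2 genes, both lower), while 4 of the 5 had an unadjusted p under 0.05, as had 11.4% of all genes. DESeq2 also called none of the 5. The difference, DKO minus WT, was -0.64 ± 0.17 for H2-K1 (p 0.000578, adjusted p 0.163), -0.56 ± 0.19 for Tapbp (0.00486, 0.267), -0.47 ± 0.15 for B2m (0.00284, 0.254), -0.41 ± 0.19 for H2-D1 (0.0402, 0.418) and 0.22 ± 0.31 for Psmb8 (0.473, 0.827). H2-K1 passed when genes with few tags were kept in the fit (-0.65, adjusted p 0.0147), beside 0.626% of genes called there.

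DKO AAV was also set beside each WT group. Against WT AAV, none of the 5 genes passed, beside 5.92% of all genes, with 0 of the 5 at an unadjusted p under 0.05 (20.7% of all genes) and 0 called by DESeq2. The log2 differences were 0.17 for B2m (-0.05 to 0.38), -0.13 for H2-K1 (-0.37 to 0.12), -0.01 for H2-D1 (-0.30 to 0.27), -0.09 for Tapbp (-0.36 to 0.19) and 0.43 for Psmb8 (-0.05 to 0.90). Against WT saline none passed either, beside 5.25% of all genes and with 0 at an unadjusted p under 0.05 (19.2% of all genes) and 0 by DESeq2. There the differences were 0.21 for B2m (-0.01 to 0.42), 0.01 for H2-K1 (-0.24 to 0.26), -0.03 for H2-D1 (-0.32 to 0.25), 0.03 for Tapbp (-0.25 to 0.30) and -0.13 for Psmb8 (-0.57 to 0.31). These intervals still allow an excess over WT saline of up to 0.42 for B2m and up to 0.26 for H2-K1. When libraries were scaled by their totals alone, B2m passed against WT saline (0.34, adjusted p 0.025), a scaling that shifted the median of all genes by 0.14 in that comparison.

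No difference between males and females passed the test in the 5 genes, with none called by edgeR and none at an unadjusted p under 0.05 (4.02% of all genes). The differences, female minus male, were -0.04 for B2m, -0.03 for H2-K1, -0.04 for H2-D1, -0.09 for Tapbp and -0.06 for Psmb8, all at an adjusted p of 1, beside 0.045% of all genes called.

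Within batches the direction held for B2m, and for H2-K1 except in batch 1 under the vector, where it could not be told. It varied for the rest. As differences of mean log2(CPM + 1), B2m exceeded WT saline in DKO saline by 0.40, 1.03, 0.13 and 0.86 in batches 1 to 4, and H2-K1 by 0.12, 1.03, 0.09 and 0.63. Tapbp differed by 0.24, 1.12, -0.10 and 0.47, and H2-D1 by -0.02, 0.49, -0.27 and 0.96. Each of the 5 genes had its largest and second largest differences in batch 2, whose only DKO saline mouse is replicate 2, and in batch 4, which held 4 of the 7 DKO saline mice. Those in batch 4 were also older than the other mice of that batch (16 against 15.5 weeks). Under the vector in DKO mice, B2m was lower in all 4 batches (-0.91 to -0.18) and H2-K1 in batches 2 to 4 (-0.82 to -0.47). In batch 1 H2-K1 differed by -0.002 between 1 mouse of each group, which is within the rounding of the counts. H2-D1, Tapbp and Psmb8 were each above 0 in 1 batch, by at most 0.04. Without batch 2 or without batch 4, B2m alone of the 5 genes passed in DKO saline against WT saline, beside 2.18% and 10.1% of all genes. None passed in DKO AAV against DKO saline, beside 0.207% and 0.812% of all genes.

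**Figure D3:**
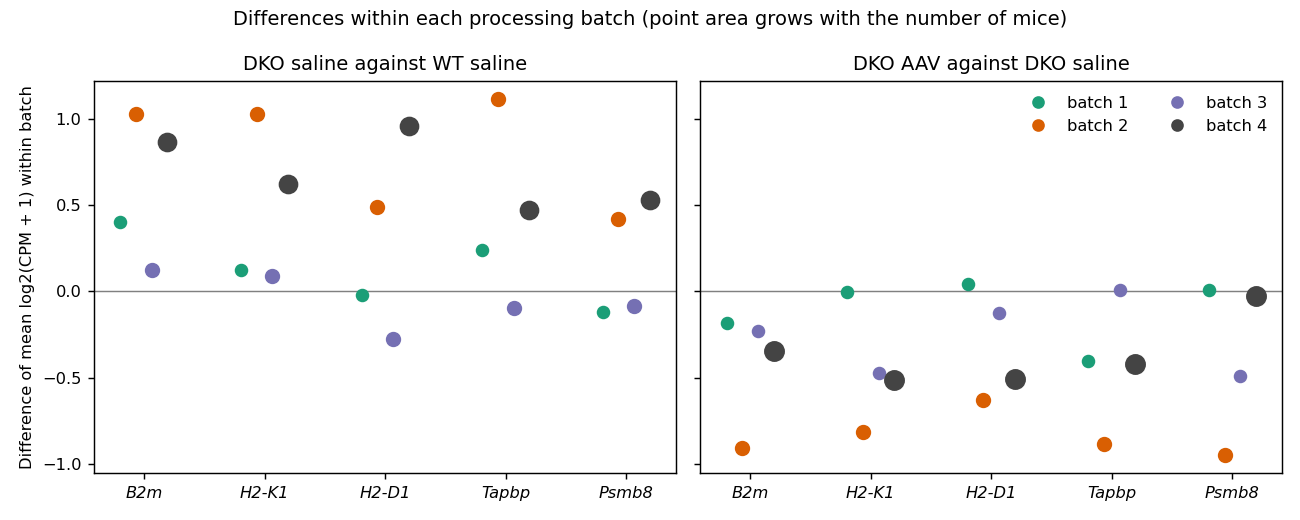
Differences of mean log2(CPM + 1) within each processing batch for the 5 tested genes, DKO saline minus WT saline on the left and DKO AAV minus DKO saline on the right, with point area growing with the number of mice. B2m and H2-K1 lie above 0 in all 4 batches on the left. On the right B2m lies below 0 in all 4, and H2-K1 in batches 2 to 4, with -0.002 in batch 1.

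Class I heavy chains resemble each other, so the sharing of tags was examined. Of the 351 words of 50 bases in the last 400 bases of the H2-K1 transcript, 2 also occurred in a transcript of another gene, H2-D1. For H2-D1 it was 43 of 351 (12.3%), spread over 80 other genes, and for B2m, Tapbp and Psmb8 it was 0. Over the 32 heavy chain genes in the table, 17 of which had a tag, H2-K1 and H2-D1 held 91.3% of the tags. Their sum over all heavy chains ran from 155 to 291 CPM (median 207) in WT saline, 207 to 271 (218) in WT AAV, 252 to 366 (272) in DKO saline and 191 to 257 (206) in DKO AAV. The log2 ratio of group means was 0.38 in DKO saline against WT saline and -0.43 in DKO AAV against DKO saline. H2-K1 tags per H2-D1 tag averaged 0.831 ± 0.167, 0.908 ± 0.123, 0.892 ± 0.097 and 0.854 ± 0.0914 in WT saline, WT AAV, DKO saline and DKO AAV (SD, n = 7), ranges that overlap throughout. Some genes overlap others, and without a stated strand setting tags of opposite strands cannot be told apart. B2m lies within Patl2 on the opposite strand, and Patl2 had 0 or 1 tag per library. Tap1 and Psmb9 overlap on opposite strands at their starts, and Gm20496, opposite Psmb8 and Tap2, had 0 tags. Tapbp spans Zbtb22, a neighbour on the same strand with 36 to 120 tags per library, and how the authors' counting split their tags is not known. Zbtb22 ran from 31.6 to 47.6 CPM in WT saline and from 34.4 to 68.0 in DKO saline.

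Of the other heavy chains, H2-T23, the mouse Qa-1 molecule that is a ligand of inhibitory receptors on natural killer cells, was barely counted. It lies within A930015D03Rik on the opposite strand, which had 0 to 5 tags per library, so its count is uncertain. It had 0 tags in all WT saline and DKO AAV libraries, 3 in all of WT AAV and 1 in all of DKO saline. A count of 0 allows up to 3 tags per library, which covers every value seen, so no fold is given. H2-M3, which presents formylated peptides, had 1 to 6 tags per library in WT saline (median 2), 1 to 9 in WT AAV (4), 1 to 9 in DKO saline (5) and 0 to 8 in DKO AAV (5). Scaled by depth, its medians were 1.868, 2.965, 3.488 and 3.288 CPM in the same order. When all genes with a tag were fitted, H2-M3 gave a log2 difference of 0.89 ± 0.42 between the saline groups (p 0.0351, adjusted p 0.337), beside 3.49% of 24919 genes called in that fit.

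The transporter subunits were counted at similarly low numbers. Tap1 had 2 to 8 tags in WT saline (median 5), 5 to 9 in WT AAV (7), 3 to 20 in DKO saline (7) and 4 to 12 in DKO AAV (9). Scaled by depth, its medians were 3.567, 5.129, 5.102 and 4.375 CPM in the same order. The highest count, 20 tags, was in the deepest library, DKO saline replicate 2 (7.86 CPM), and in CPM Tap1 was highest in DKO saline replicate 1 (8.96 CPM). The fit without a filter gave 0.64 ± 0.32 between the saline groups (p 0.0468, adjusted p 0.395) and -0.31 for DKO AAV against DKO saline (adjusted p 0.822), a comparison with 2.85% of genes called in that fit. Tap2 had 0 to 8 tags in WT saline (median 2), 0 to 7 in WT AAV (3), 0 to 9 in DKO saline (5) and 3 to 11 in DKO AAV (6), with 0.23 ± 0.44 between the saline groups (adjusted p 0.914). Its medians in CPM were 1.345, 2.198, 2.834 and 3.596 in the same order. Neither subunit passed in either of these comparisons.

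Psmb9, the immunoproteasome subunit whose gene starts beside Tap1, had 2 to 18 tags in WT saline (median 6), 3 to 9 in WT AAV (7), 4 to 16 in DKO saline (10) and 3 to 10 in DKO AAV (8). In tags the WT saline group alone spanned the whole range. Scaled by depth, the medians of Psmb9 were 5.274, 5.665, 5.669 and 4.642 CPM in the same order. The log2 differences were 0.08 ± 0.29 between the saline groups (adjusted p 1) and -0.49 ± 0.29 for DKO AAV against DKO saline (adjusted p 0.555). At this depth even the difference of 0.64 for Tap1, as large as that of B2m, did not pass the test.

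**Figure D4:**
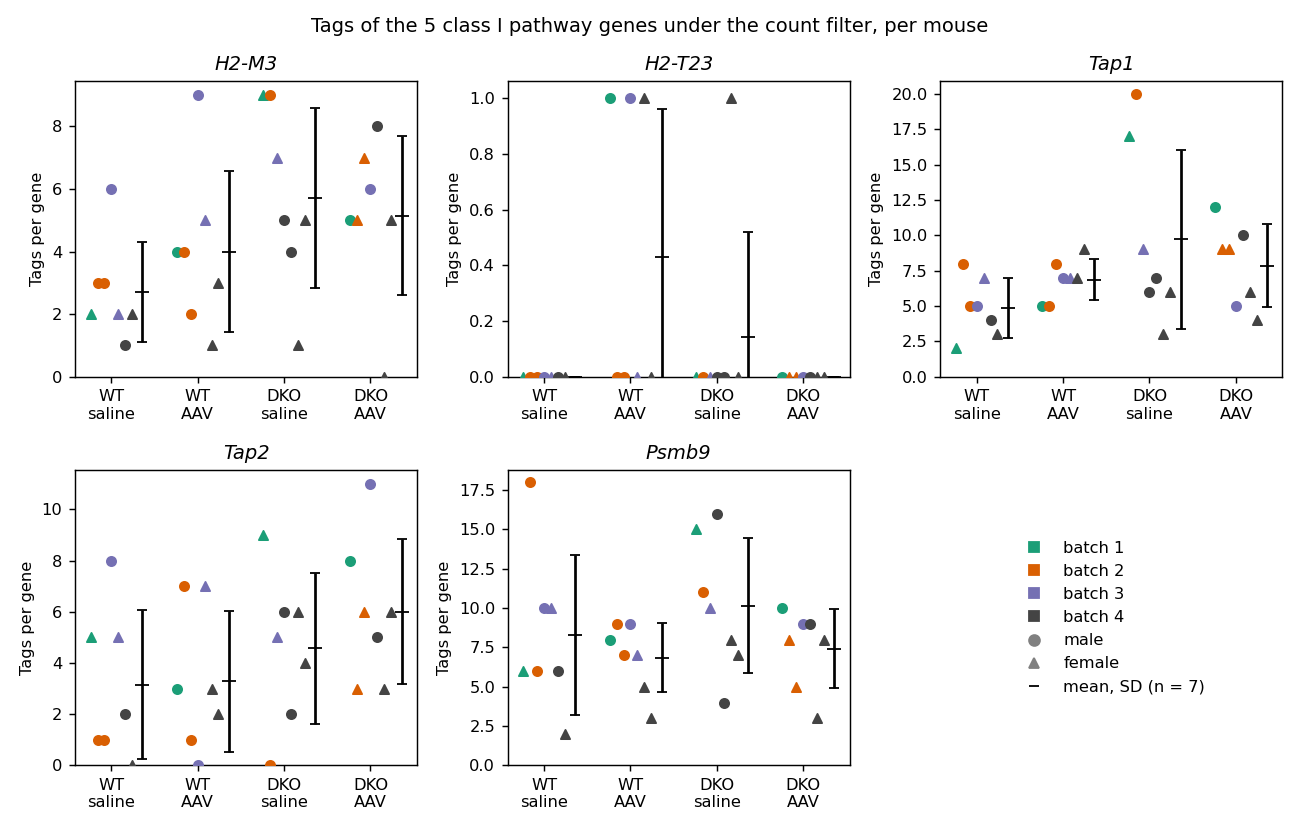
Tags per library of the 5 genes under the count filter, 1 point per mouse on linear axes from 0, coloured by batch with shapes for sex and bars for the mean and SD of 7 mice. Tap1 reaches 20 tags in 1 DKO saline mouse, and H2-T23 has at most 1 tag in any library. Tags are not scaled by depth, and the DKO libraries were deeper on average.

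The tested genes varied together from mouse to mouse. After group, sex and batch were removed from log2 CPM, 8 of the 10 pairs correlated over 28 mice at a permutation p under 0.05 after adjustment over the 10 pairs, 7 of them also by rank. The permutation treats the 28 residuals as independent, which they are not once group, sex and batch are removed. Its p-values may therefore be too small, which matters most for the weaker pairs. Of all 61855003 pairs of tested genes, 2.81% reached the lowest r of these 8 pairs, 0.49, and 0.114% reached 0.73. B2m and H2-K1 gave r = 0.73 (rho 0.77) and B2m and H2-D1 r = 0.74 (rho 0.71), both with a two-sided permutation p of 1e-05, the smallest that 100000 resamples can give, and 3.33e-05 adjusted for r. Without the 2 mice farthest from the median of B2m these were 0.79 and 0.73. H2-K1 and H2-D1 gave r = 0.74 (rho 0.66, adjusted p 3.33e-05, r without 2 mice 0.63). Within the 3 batches of at least 6 mice, B2m and H2-K1 correlated at 0.69 to 0.78 and B2m and H2-D1 at 0.58 to 0.94. Tapbp stood further out, with r = 0.49 to B2m (adjusted p 0.0111, and 0.0755 by rank), 0.28 to H2-D1 (adjusted p 0.157) and -0.06 to Psmb8 (0.779). Psmb8, which passed in no comparison between groups, still correlated with B2m at r = 0.60 (adjusted p 0.00205).

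The genes most like each member over the same 28 residuals, of 11122 compared, are given as a description. They were the macrophage perforin gene Mpeg1 (r = 0.84), Dusp3 (0.83) and RP24-87K15.3 (0.81) for B2m, and the myosin gene Myo1e (0.89), the cathepsin S gene Ctss (0.86) and Ehd4 (0.85) for H2-K1. For H2-D1 they were the endosomal GTPase gene Rab7b (0.92), the complement receptor gene C3ar1 (0.87) and the integrin gene Itgb2 (0.85). For Tapbp they included Arl4c (0.78) and Cxxc1 (0.76), and for Psmb8 Snx19 (0.77), the leukocyte tetraspanin gene Cd53 (0.77) and Ctxn3 (0.75).

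Of 36 other tested genes of the pathway in 5 lists, 6 (16.7%) rose between the saline groups and none fell, beside 6.9% of all genes called and 3.62% called higher. Of 8 chaperones of peptide loading 2 rose, the lumenal chaperone gene Hspa5 by 0.38 ± 0.08 (adjusted p 0.00251) and calnexin (Canx), which folds new heavy chains, by 0.28 ± 0.07 (adjusted p 0.0174), with a list median of 0.23. Of 14 subunits of the standard proteasome 3 rose, Psmb6 by 0.38 (adjusted p 0.0221), Psma6 by 0.35 (0.0416) and Psmb1 by 0.26 (0.043), with a median of 0.18. None of the 5 tested genes of the proteasome activator and the remaining immunosubunit passed (median 0.21, 1 at an unadjusted p under 0.05), nor did any of the 4 other heavy chain genes tested of 20 listed (median 0.16, 1 likewise). Of 5 cytosolic peptidases tested, Lap3 rose by 0.50 ± 0.11 (adjusted p 0.00501). Under the vector in DKO mice none of these genes passed, beside 3.02% of all genes, with medians of -0.25 for the chaperones and -0.07 for the standard proteasome.

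Of the regulators of class I transcription, 1 of 16 tested rose between the saline groups, a share near the 6.9% of all genes called. It was Stat3, which mediates interleukin-6 type signals, and it rose by 0.68 ± 0.09 (adjusted p 1.34e-05). Its levels were 60.4 ± 4.27 and 61.9 ± 6.85 CPM in WT mice without and with vector and 96.4 ± 13.6 and 81.5 ± 7.71 CPM in DKO mice, and it was higher in DKO AAV than in WT AAV by 0.39 (adjusted p 0.0125). Rfx5, a subunit of the factor that binds the X box, was higher in DKO AAV than in WT AAV by 0.45 (adjusted p 0.0381). In DKO AAV the proteasome subunit genes Psma5 (0.59 against WT AAV, adjusted p 0.0217) and Psma4 (0.48 against WT saline, 0.0319) were also higher. Of 6 interferon receptors and kinases tested none passed, with 2 at an unadjusted p under 0.05. Of 14 interferon-induced genes tested of 25 listed, 2 rose in DKO saline (3.62% of all genes called higher), Lgals3bp by 0.86 ± 0.18 (adjusted p 0.00179) and Bst2, which tethers budding virions, by 0.56 ± 0.17 (adjusted p 0.0427), with a list median of 0.14. The same 2 fell under the vector in DKO mice (2.2% of all genes called lower), by 0.69 ± 0.16 (adjusted p 0.016) and 0.67 ± 0.16 (adjusted p 0.0213), with a median of -0.35. MHC class II had 1 of 8 listed genes tested, which did not pass (-0.04). A list of 9 receptor genes had 2 tested, and its 1 call was Trem2, which is a lipid receptor of microglia and no class I receptor.

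Cell type markers were followed in the same comparisons. Of all genes, 6.9% were called in either direction between the saline groups and 3.02% under the vector in DKO mice. Of 20 microglial markers 12 rose in DKO saline against WT saline (median 0.64, beside 3.62% of all genes called higher), among them C1qa by 1.53 and C1qb by 1.00, and 10 fell under the vector in DKO mice (median -0.40, beside 2.2% called lower), among them C1qa by 0.99, Trem2 by 0.95 and Tyrobp by 0.87. Their summed level ran from 1146 to 1858 CPM in WT saline, 1317 to 1575 in WT AAV, 2074 to 3448 in DKO saline and 1570 to 1873 in DKO AAV, so DKO saline did not overlap the other groups, and no marker was at 0. In DKO AAV against WT AAV 2 of these 20 markers were higher, beside 5.92% of all genes called. Their median there was 0.29, against -0.01 for the 5 class I genes. Of 15 endothelial markers tested 1 fell in DKO saline, Slco1c1, by 0.40, a share near the 6.9% of all genes called. The sums of the endothelial markers overlapped in all groups (599 to 790, 611 to 765, 592 to 830 and 586 to 767 CPM in the same order). Of 25 blood leukocyte markers 5 were tested and 1 rose, the T cell receptor gene Trac, by 1.13 (adjusted p 0.0156), while 2 were at 0 in every library. Trac was low and uneven between mice, at 4.98 ± 0.798 CPM in WT saline and 9.13 ± 7.35 CPM in DKO saline (SD, n = 7). The sums of the leukocyte markers were 36.3 to 75.7, 38.2 to 72.7, 44.3 to 144 and 45.2 to 161 CPM. Of 4 border macrophage markers tested, Ms4a7 rose by 0.77 (adjusted p 0.011). Of 8 astrocyte markers 2 rose in DKO saline (list median -0.0049), Gfap by 2.29 and Aqp4 by 0.96, and under the vector Gfap (by 1.30) and Aldoc (by 0.30) fell. Of 9 neuronal markers 2 fell in DKO saline, Rbfox3 by 0.46 and Nefl by 0.44, and under the vector Rbfox3 rose by 0.40. Of 7 oligodendrocyte markers Mobp fell in DKO saline, by 0.81, and none passed under the vector. Summed levels overlapped between the groups, at 7411 to 8966, 7368 to 8952, 7998 to 9673 and 6841 to 8630 CPM for astrocytes in the same order. They were 5263 to 6585, 5626 to 6955, 3671 to 6446 and 5741 to 6835 CPM for neurons, and 6274 to 12080, 6407 to 10990, 4822 to 10150 and 5079 to 7605 CPM for oligodendrocytes. None of these markers was at 0 in every library. The part of any of these cell types in the class I levels was not tested. The share of mitochondrially encoded tags also differed, at 18.9 to 21.1% in WT saline against 12.6 to 19.0% in DKO saline. With that share as a term, 0.98% of all genes were called in DKO saline against WT saline, against 6.9% in the main fit. B2m and H2-D1 passed there. H2-K1 (0.60, against 0.51 in the main fit, adjusted p 0.135) and Tapbp (0.18, against 0.48, adjusted p 0.765) did not.

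**Figure D5:**
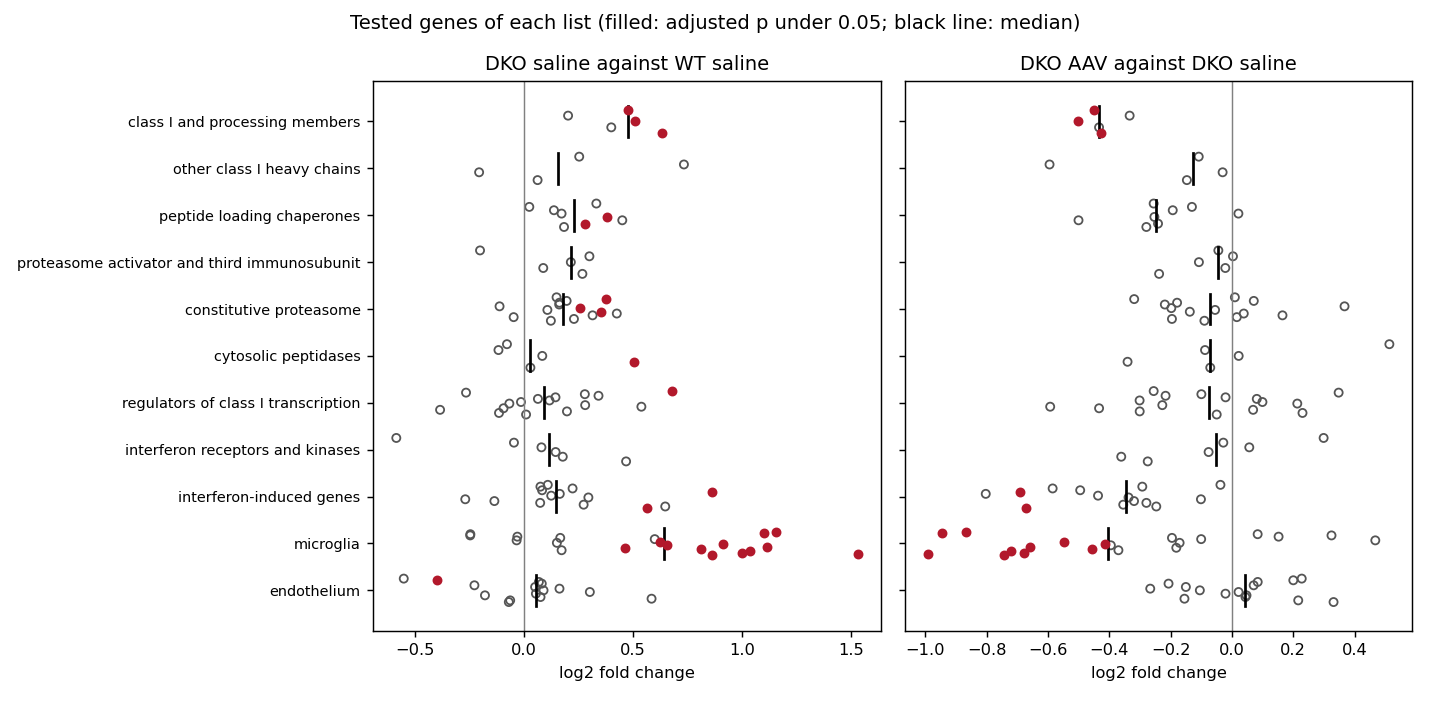
Log2 fold changes of the tested genes of each list, filled where the adjusted p was under 0.05, with a black line at the median, for DKO saline against WT saline (left) and DKO AAV against DKO saline (right). The 5 class I genes have medians of 0.48 and -0.43, the microglial markers 0.64 and -0.40, and the endothelial markers 0.05 and 0.04.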

How the data were processed

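RNA of 1 hemibrain per mouse was read with Lexogen's QuantSeq 3' FWD kit with molecular identifiers, per the labels' protocols, so 1 tag stands for 1 molecule and tags do not scale with transcript length. The build was GRCm38.p6, and the tools named were STAR, edgeR 3.40.2 in R 4.2, FastQC 0.11.5 and MultiQC 1.0, according to the submitters' processing notes. Neither the counting program nor its strand setting is given in the sources used here. The authors deposited raw counts rounded to at most 2 significant digits (100% of non-zero values, an error of at most 4.76% for counts of 100 or more), normalized CPM (a signal scaled by library size), and library totals with normalization factors (a ratio), per the file headers. Column totals of the counts differed from the deposited totals by at most 0.16%.

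Genes were kept by filterByExpr (minimum count 10, minimum total 15) and fitted with edgeR 4.0.16 in R 4.3.3 over all 28 mice, with TMM scaling and terms for group, sex and batch, by glmQLFTest with Benjamini-Hochberg adjustment over all 11123 genes and a threshold of 0.05. The SE is the log2 change divided by the square root of F. CPM in the text uses these library sizes and TMM factors. Alternatives used DESeq2 1.42.0, limma 3.58.1 on the deposited CPM with a pseudocount of 1, other scalings, filters and terms, and each library or batch left out. Within-batch differences use a pseudocount of 1, and residual correlations use log2 CPM with a prior count of 2. Intervals cover the spread between mice, and the limit of 3 tags for a count of 0 covers counting error only. Shared words were sought in GENCODE M21 transcripts, using the longest transcript of each gene. Promoter windows are from RefSeq.

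Groups, sex, batch and age came from the labels, and replicate numbers only name the mice. The 84 pairs of libraries within groups gave a chi-square over degrees of freedom of 1.075 to 2.748 (highest p 7.6e-06). The rounding of the deposited counts adds to this ratio. The test therefore cannot say that every pair differed beyond sampling noise. The 10 genes and the other lists were chosen with earlier results of these data known. Named genes are the 10 genes, the 3 genes most like each tested one, up to 4 called genes of each pathway list and up to 3 of each marker list by smallest p, except 2 genes that are not reported here. The scripts were tested on simulated data.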

Additional observations from a re-analysis of the deposited data

Results flagged for a closer look

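In 20 sets of 7 values (5 tested genes in 4 groups), 3 held a mouse whose gap to its nearest neighbour exceeded Dixon's critical share of the group's range, and chance flags about 1 set in 20. B2m stood at 746.9 CPM in the second DKO saline mouse, replicate 2, while its 6 group mates had 478 to 593 (ratio 0.573). Tapbp stood at 62.89 CPM in the same mouse, against 34.0 to 43.7 in the others (ratio 0.663). That library also had the highest microglial marker score (0.79) and the lowest striatal score (-1.48) of all 28. Psmb8 stood at 5.381 CPM in WT saline replicate 6, a library of low cerebellar score, against 12.1 to 15.2 in the others (ratio 0.688). Without these 2 libraries and WT AAV replicate 7, Psmb8 differed between the saline groups by -0.10.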

How the results depend on the processing

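Each of the 30 log2 changes of the 5 tested genes was refitted under 41 or 42 alternatives. Of 252 refitted values of the 6 called changes, 208 stayed called, 44 were no longer called and 0 changed direction. Of 1003 refitted values of the 24 changes not called, 19 became called and 60 changed direction. B2m in DKO saline against WT saline was called in all 42 (0.42 to 0.84). In that comparison 3 genes were called, and 1, B2m, without batch 2, without batch 4 and without the 3 libraries of low regional score. Of all genes, 2.18%, 10.1% and 6.19% were called in these 3 refits. Over single libraries left out, 2 to 4 of the 5 genes were called. In DKO AAV against DKO saline 3 were called, and 0 under each of the same alternatives, beside 0.207%, 0.812% and 0.691% of all genes. Over single libraries left out, it was 0 to 4. In the other comparisons none was called, except 1 in DKO AAV against WT AAV with the mitochondrial share as a term (Psmb8), 1 in DKO AAV against WT saline with library totals (B2m), and 1 in the interaction without a count filter (H2-K1). The cause was not tested. Of the correlated pairs, 8 of 10 passed with and without sex and batch removed.

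These values changed direction. Without the 3 libraries of low regional score, Psmb8 between the saline groups gave -0.0989, and in WT AAV against WT saline B2m gave -0.0366. In DKO AAV against WT AAV, H2-D1 gave 0.097 with library totals, 0.0374 with limma, 0.2559 with the mitochondrial share, 0.0019 without a count filter and 0.1072 without batch 2 (-0.0781 to 0.0398 over single libraries), and Tapbp 0.0262 with library totals and 0.0026 without batch 4. In WT AAV against WT saline, B2m gave -0.0062 and -0.0473 without batches 2 and 4 (-0.0424 to 0.0918), H2-K1 -0.0055 without batch 2, and H2-D1 0.0088 with library totals, 0.0004 with limma, 0.0813 with the mitochondrial share and 0.2021 without batch 3 (-0.1342 to 0.0811). In DKO AAV against WT saline, H2-K1 gave -0.0281 with RIN, -0.0175, -0.0779 and -0.024 without batches 1, 2 and 4 and -0.0737 without the low regional scores (-0.0697 to 0.0841). H2-D1 gave 0.1058 with library totals, 0.0378 with limma, 0.3373 with the mitochondrial share, 0.0111 with only the compared groups, and 0.006 and 0.1454 without batches 2 and 3 (-0.1553 to 0.0592). Tapbp gave -0.2143 with the mitochondrial share, -0.0137 with RIN, -0.1077 without batch 2 and -0.039 without the low regional scores (-0.0288 to 0.1143). Psmb8 gave 0.0093 with library totals, 0.5216 with the mitochondrial share, and 0.0725 and 0.0361 without batches 2 and 3. In the interaction Psmb8 gave -0.0846 with the mitochondrial share.

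Library totals shifted the median of all genes by 0.11 between the saline groups. No paired analysis was possible because the labels give no replicate numbers, and the numbers used here only name the mice. Depth limits H2-T23, H2-M3, Tap1, Tap2 and Psmb9, which had at most 20 tags in any library.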
